A study of Sus scrofa with 12 samples.

Results

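The proteasome is the protease that cuts proteins tagged with ubiquitin, and the RNA of its genes was followed here in the livers of pigs kept in the cold or at room temperature. The members are the rows of the gene table whose symbol starts with PSM, a letter from A to G and a number, without PSMB8 and PSMB9. This rule took 37 of 21169 rows, and it used no expression value. Of the 37 rows, 35 passed a filter on low counts and were tested among 13532 genes. The study set Hezuo pigs, a small breed of a cold Chinese plateau, beside Bama pigs, a miniature breed of the warm south of China, to look for genes and non-coding RNAs tied to resistance to cold. The 4 groups were Hezuo pigs in the cold (-15 ± 2 °C), Hezuo pigs at room temperature (23 ± 2 °C), Bama pigs in the cold (-15 ± 2 °C) and Bama pigs at room temperature (23 ± 2 °C), each with 3 pigs sampled on day 15. All pigs were kept ventilated and on balanced feed, and the labels name neither the age nor the sex of the animals. The libraries were made from liver RNA depleted of ribosomal RNA, so they hold the RNA of every cell type of the tissue, and in such samples fewer cells of a type and less RNA per cell cannot be told apart.

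The proteasome is built from a barrel-shaped core and a cap. The core has outer rings of alpha subunits (PSMA genes), which form the gate, and inner rings of beta subunits (PSMB genes), of which PSMB5, PSMB6 and PSMB7 carry the active sites. Interferon-induced beta subunits, PSMB8, PSMB9 and PSMB10, replace those catalytic subunits in the immunoproteasome. The regulatory cap has a ring of ATPases (PSMC genes), which unfold the substrate and thread it into the core, and non-ATPase subunits (PSMD genes), which form the scaffold, bind ubiquitin chains and cut them off. Other caps are the activators PSME1 to PSME4, PSMF1 is an inhibitor, and the PSMG genes with PSMD5, PSMD9 and PSMD10 encode assembly chaperones. In mammalian cells the transcription factor NFE2L1 raises the transcription of the subunit genes when the activity of the proteasome is too low.

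By role, the 37 rows were 5 alpha subunits, 4 structural and 2 catalytic beta subunits, 3 inducible or tissue-restricted core subunits, 6 cap ATPases, 9 non-ATPase cap subunits, 4 activators or inhibitors, 3 assembly chaperones, and PSMC3IP. PSMC3IP meets the rule by its letters alone: it encodes a partner of the recombinases of meiosis and is not a proteasome subunit. The rows that failed the filter were PSMA8, the alpha subunit of the testis, and PSMB11, the catalytic subunit of the thymus, and both were listed at 0 in all 12 libraries. Another 9 proteasome genes have no symbol in the table and so are no members (PSMA2, PSMA5, PSMB5, PSMD4, PSMD7, PSMD9, PSME2, PSMG2 and PSMG4). Their rows were named from the gene numbers and identifiers, and their values are given as those of genes beside the members.

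The libraries held 20041285 to 30188037 counts, of which the 37 members took 0.131% to 0.225%. The transcripts of ALB, serum albumin, made up 3.05% to 9.78% of counts in Hezuo pigs in the cold and 9.42% to 12.01% at room temperature, and 1.53% to 7.12% in Bama pigs in the cold and 8.24% to 8.67% at room temperature. RNA of DDX3Y, a gene of the Y chromosome, was at 0 to 3 counts in Bama cold replicate 2 and in all 3 Bama libraries at room temperature, against 1331 to 3769 counts in the other 8 libraries. All 7 hepatocyte markers, ALB among them, were detected in the libraries.

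Levels between genes were compared as FPKM, fragments scaled by gene length and library depth, over all 12 libraries. PSMB1, a structural beta subunit, had the highest mean at 69.7 FPKM (range 49.8 to 90.1). PSMD2, a scaffold subunit of the cap that binds ubiquitin receptors and shuttles, followed at 52.2 FPKM (34.1 to 70.4), and PSMA7, an alpha subunit, at 51.8 FPKM (32.5 to 59.3). The ranges of these neighbours in the order overlapped. In each of the other roles the highest mean was that of PSMB7 (27.7 FPKM) among the catalytic subunits, PSMC5 (34.8 FPKM) among the ATPases, PSME1 (45.6 FPKM) among the activators and PSMD5 (14.4 FPKM) among the chaperones. The lowest means were 9.68 FPKM for PSMA4, 6.91 FPKM for PSMB3, 13.9 FPKM for PSMB6, 6.63 FPKM for PSMC1, 7.06 FPKM for PSMD12, 14.7 FPKM for PSME4 and 3.73 FPKM for PSMD10. Subunits that stand in 1 copy in each ring or cap thus differed by several-fold in FPKM. The length that the deposited FPKM values assume, read from count, FPKM and library total, ran from 854 bases for PSMG3 to 5572 for PSMC1, 5655 for PSMB4 and 6842 for PSME4, and this order of levels rests on those lengths.

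Within a gene the levels varied over the 12 libraries, all 4 groups together, about as much as in all genes. The coefficient of variation of CPM (counts scaled to the library total, with TMM factors) over 12 libraries had a median of 20.1% over the 35 tested members, beside 22.7% over all 13532 genes. The median level of the members was higher, at 47.55 CPM beside 14.8 CPM. Without PSMC3IP, the highest library stood 1.35 (PSMD13) to 5.10 (PSME3) times above the lowest, and 13 of 34 members had a fold above 2. Estimated counts of PSMD2, PSMC6, PSMA4 and PSME1 were fractional in all 12 libraries, and those of PSME3 in 91.7% and of PSMB3 in 83.3% of libraries with counts. A fractional count can come from reads that were shared out between a gene and a near copy, so the levels of these genes are less certain.

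The RNA of most proteasome genes had a positive fold change in the cold in both breeds, and the fold was small. Averaged over both breeds, 12 of 35 members were called (edgeR quasi-likelihood test, Benjamini-Hochberg adjusted p below 0.05), all of them higher in the cold, beside 1.95% of all genes called higher and 1.94% called lower. The called members were PSMD14, PSMD1, PSMD5, PSMD12, PSMD11, PSMA4, PSMA3, PSMC1, PSMC4, PSMB2, PSMB3 and PSME4. Log2 fold changes were positive for 32 of 35 members, beside 48.7% of all genes, with a median of 0.36, a 1.28-fold level, beside -0.01 over all genes. At an unadjusted p below 0.05, 23 members were higher and 0 lower, beside 11.7% and 11.8% of all genes. In 9 members all 6 cold libraries lay above all 6 room temperature libraries, beside 1.12% of all genes. DESeq2 called 18 members, all higher, beside 11% of all genes in both directions.

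The number of calls depended on single libraries. It was 2 without Bama replicate 3 at room temperature, 3 without Hezuo replicate 2 at room temperature, and likewise 3 if Hezuo cold replicate 3 was left out. It was 5 if Bama cold replicate 3, Hezuo replicate 1 at room temperature or Hezuo cold replicate 2 was left out. With any one of the other 6 libraries left out it was 8 to 12. Calls over all genes, 3.89% of them in the fit of 12 libraries, were also fewer in the first 3 of these fits, at 0.955%, 1.06% and 1.3%, and lay between 0.955% and 4.42% over all 12. PSMD14 and PSMD11 were called in 12 of 12 such fits, PSMD12 in 11, PSMA4 in 9 and PSMD1 in 8, whereas PSMA3, PSMD5, PSMB2 and PSME4 were called in 2. The median log2 fold change lay between 0.30 and 0.40 in the same fits. Presence of Y-linked RNA varied within no group but Bama pigs in the cold, where replicate 2 lacked it. With this presence as a term, the cold value of Bama pigs thus rests on that 1 library, and so does its part of the average. With the presence of Y-linked RNA as a term of the model, 1 member, PSMD14, was called (adjusted p = 0.0312), the median was 0.33, and 6 genes of 13532 were called at all.

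The same direction was seen within each breed, in comparisons that share no library. In Bama pigs, cold replicates 1 and 3 held Y-linked RNA and no library at room temperature did. Temperature and Y-linked RNA therefore cannot be fully told apart in Bama pigs. In Hezuo pigs 31 of 35 members had a positive log2 fold change (cold over room temperature, median 0.34, a 1.27-fold level), and in 16 members all 3 cold libraries lay above all 3 room temperature libraries, beside 48.4% and 10.8% of all genes. In Bama pigs 30 of 35 had a positive value (median 0.33, a 1.25-fold level) and 21 members did not overlap in that direction, beside 48.5% and 11.2% of all genes. The opposite separation was seen in 0 members in Hezuo pigs, beside 10.9% of all genes, and in 1 member, PSMG3, in Bama pigs, beside 10.2%. The value was positive in both breeds for 29 of 35 members (82.9%), beside 30.5% of all genes, and negative in both for 3 members, PSME1, PSMF1 and PSMG3. Calls were few: 1 member in Hezuo pigs (PSMD14), beside 0.281% of all genes, and 2 in Bama pigs (PSMD14 and PSMD11), beside 0.924%. At an unadjusted p below 0.05, 14 members were higher and 0 lower in Hezuo pigs, beside 8.31% and 7.25% of all genes. In Bama pigs 19 were higher and 1 lower, beside 7.78% and 8.01%. DESeq2 called 5 members in Hezuo pigs and 7 in Bama pigs, all higher, beside 3.99% and 5.06% of all genes in both directions.

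**Figure D1:**
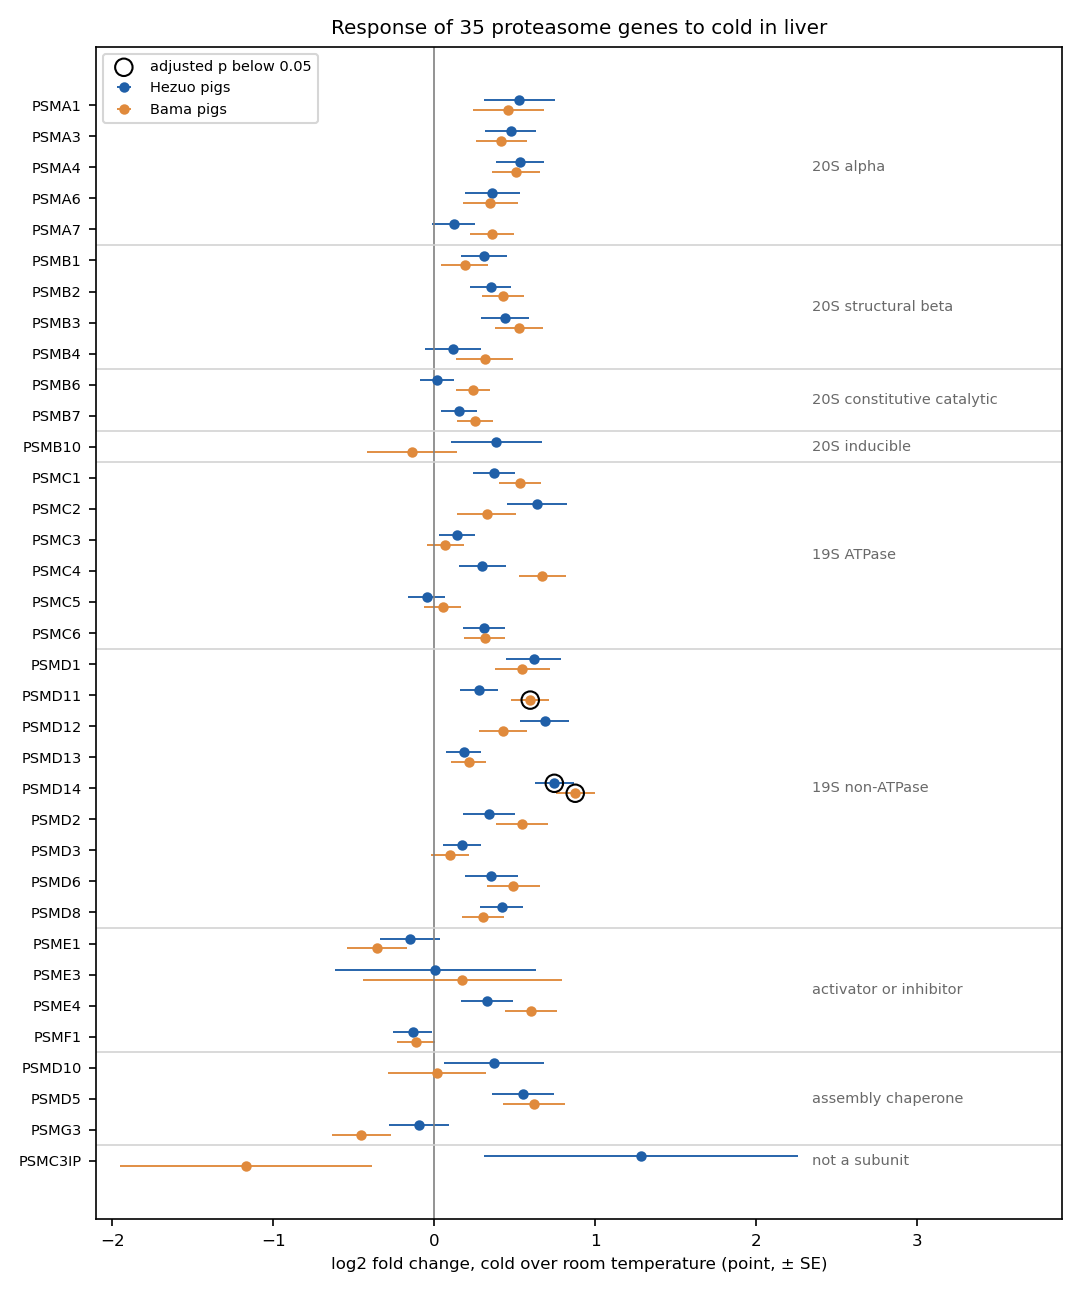
Log2 fold change of cold over room temperature with its standard error, for the 35 tested members grouped by role, in Hezuo pigs (blue) and Bama pigs (orange), 3 pigs a group. Circles mark an adjusted p below 0.05: PSMD14 in both breeds and PSMD11 in Bama pigs. Nearly all core and cap genes lie right of 0, and PSME1, PSMF1 and PSMG3 lie left of it in both breeds.

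Read by library, the shift was carried by most animals of a group. Members above their own median over the 12 libraries numbered 29, 26 and 32 of 35 in Hezuo cold replicates 1 to 3, against 12, 6 and 17 in Hezuo pigs at room temperature. They numbered 21, 22 and 27 in Bama pigs in the cold, against 9, 2 and 7 in Bama pigs at room temperature. The groups did not overlap within either breed, while the share of all genes above their median lay between 47.8% and 51.2% in every library. Hezuo cold replicate 3 stood highest, with a median deviation of 0.32 on the log2 scale, and the lowest were Hezuo replicate 2 (-0.30) and Bama replicate 2 (-0.34), both at room temperature.

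**Figure D2:**
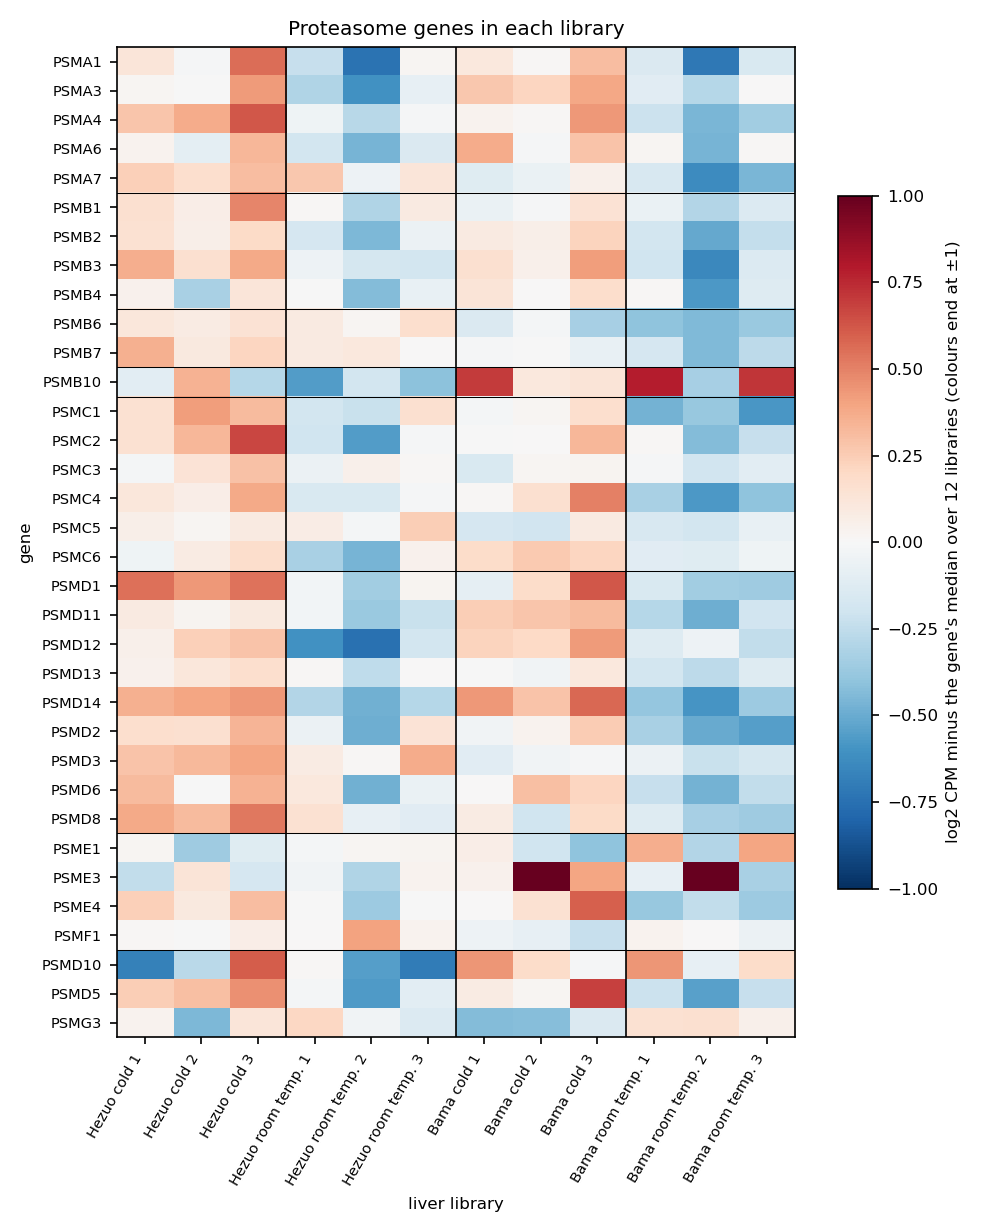
Level of each tested member but PSMC3IP in each liver library, as log2 CPM minus the gene's median over 12 libraries (red above, blue below, colours end at ±1). The cold libraries of both breeds are mostly red and the room temperature libraries mostly blue. PSMB10 and PSME1 are red in Bama replicates 1 and 3 at room temperature, and PSME3 in both Bama libraries of replicate 2.

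The summed RNA of markers also differed with temperature for some cell types. Hepatocyte and stellate cell sums did not overlap between the temperatures in either breed, and macrophage sums did not in Bama pigs but did in Hezuo pigs. Sums for T and NK cells, B and plasma cells, endothelium, cholangiocytes and erythroid cells overlapped between the temperatures in both breeds. The summed level of the 7 hepatocyte markers was 52000 to 133000 CPM in Hezuo pigs in the cold and 140000 to 167000 CPM at room temperature, and 25200 to 84300 CPM in Bama pigs in the cold and 104000 to 117000 CPM at room temperature. The 6 markers of macrophages and Kupffer cells summed to 1740 to 2870 CPM in Hezuo pigs in the cold against 1180 to 1750 CPM at room temperature, and to 2180 to 3680 CPM in Bama pigs in the cold against 1480 to 2070 CPM at room temperature. The 6 markers of stellate cells and fibroblasts summed to 917 to 1410 CPM in Hezuo pigs in the cold against 1530 to 2410 CPM at room temperature, and to 765 to 1140 CPM in Bama pigs in the cold against 2020 to 3790 CPM at room temperature. All hepatocyte, macrophage and stellate cell markers were detected. The part of the cell type markers in the values of the proteasome genes was not tested.

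The non-ATPase subunits of the cap, the role with the most members, held 4 of the 12 calls, and all 9 had a positive fold change in both breeds. Averaged over the breeds, 4 of 9 were called (PSMD14, PSMD1, PSMD12 and PSMD11) and 8 had an unadjusted p below 0.05, with a median log2 fold change of 0.44. Of all genes, 1.95% were called higher in this comparison and 11.7% were higher at that unadjusted p. Their summed level was 643, 633 and 692 CPM in Hezuo pigs in the cold, against 530.4, 434 and 565 CPM at room temperature. In Bama pigs it was 546, 566 and 651 CPM in the cold, against 467, 417 and 429 CPM at room temperature.

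PSMD14, the deubiquitinase of the cap that removes the ubiquitin chain as the substrate enters, showed the clearest separation. It had 22.4, 23.1 and 23.8 CPM in the cold, against 14.3, 12.6 and 14.4 CPM at room temperature, in Hezuo pigs. It had 23.7, 21.4 and 26.1 CPM in the cold, against 13.4, 11.7 and 13.7 CPM at room temperature, in Bama pigs. The lowest cold library thus stood well above the highest room temperature library of either breed, and the ranges of the breeds overlapped at each temperature. The log2 fold change was 0.75 ± 0.12 (SE; adjusted p = 0.0409) in Hezuo pigs, 0.88 ± 0.12 (adjusted p = 0.00967) in Bama pigs and 0.81 ± 0.09 (adjusted p = 0.00216) averaged over both, a 1.75-fold level. The call in Bama pigs held in 12 of 12 fits that left out 1 library. The call in Hezuo pigs held in 3 of 12, those without Bama replicate 2 or 3 at room temperature or Bama cold replicate 3, and its adjusted p reached 0.166 in the others. Over 20 alternatives the adjusted p ran from 1.58e-05 to 0.166 in Hezuo pigs and from 3.84e-08 to 0.412 in Bama pigs, and over 19 alternatives from 3.1e-14 to 0.0312 for the average.

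PSMD11, a scaffold subunit of the cap, had 53.05, 50.8 and 53.4 CPM in the cold, against 48.8, 38.4 and 42.6 CPM at room temperature, in Hezuo pigs. It had 59.03, 60.4 and 62.1 CPM in the cold, against 40.9, 35.5 and 43.7 CPM at room temperature, in Bama pigs. All cold libraries were above all room temperature libraries, by more in Bama pigs (0.60 ± 0.12, adjusted p = 0.0427) than in Hezuo pigs (0.28 ± 0.12, adjusted p = 0.292), although the difference between the breeds was within its error (-0.32 ± 0.17, adjusted p = 0.695). The call in Bama pigs held in 2 of 12 fits that left out 1 library, those without Hezuo replicate 1 or 2 at room temperature.

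PSMD12, another scaffold subunit, had 27.1, 30.8 and 31.8 CPM in the cold, against 17.1, 15.6 and 23.1 CPM at room temperature, in Hezuo pigs. It had 30.6, 29.9 and 35.2 CPM in the cold, against 23.9, 25.2 and 22.02 CPM at room temperature, in Bama pigs. Cold and room temperature did not overlap in either breed, and the average was 0.56 ± 0.11 (adjusted p = 0.0214). PSMD1, a large non-ATPase subunit of the cap, had 103, 95.5 and 103 CPM in the cold, against 69.3, 55.5 and 72.2 CPM at room temperature, in Hezuo pigs. It had 66.6, 80.3 and 109 CPM in the cold, against 63.7, 55.7 and 55.4 CPM at room temperature, in Bama pigs, where the cold libraries spread widely but stayed above those at room temperature. Its average was 0.58 ± 0.12 (adjusted p = 0.0286).

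The other 5 non-ATPase members did not pass the test on the average. PSMD2 had 0.44 ± 0.12 (adjusted p = 0.0546), PSMD8 0.36 ± 0.09 (0.0545), PSMD6 0.42 ± 0.12 (0.0615), PSMD13 0.20 ± 0.08 (0.146) and PSMD3 0.14 ± 0.08 (0.35), with the adjusted p in parentheses. Beside the members, PSMD4, a ubiquitin receptor of the cap, was called at 0.38 ± 0.09 (adjusted p = 0.0395), and PSMD7, the partner with which PSMD14 forms its active dimer, at 0.51 ± 0.11 (adjusted p = 0.0273). PSMD7 had 45.7, 50.7 and 49.96 CPM in the cold, against 34.7, 29.9 and 38.4 CPM at room temperature, in Hezuo pigs. It had 36.9, 39.03 and 51.6 CPM in the cold, against 31.02, 31.7 and 26.2 CPM at room temperature, in Bama pigs. Both members of the deubiquitinating dimer were thus higher in every cold library than in the room temperature libraries of the same breed.

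**Figure D3:**
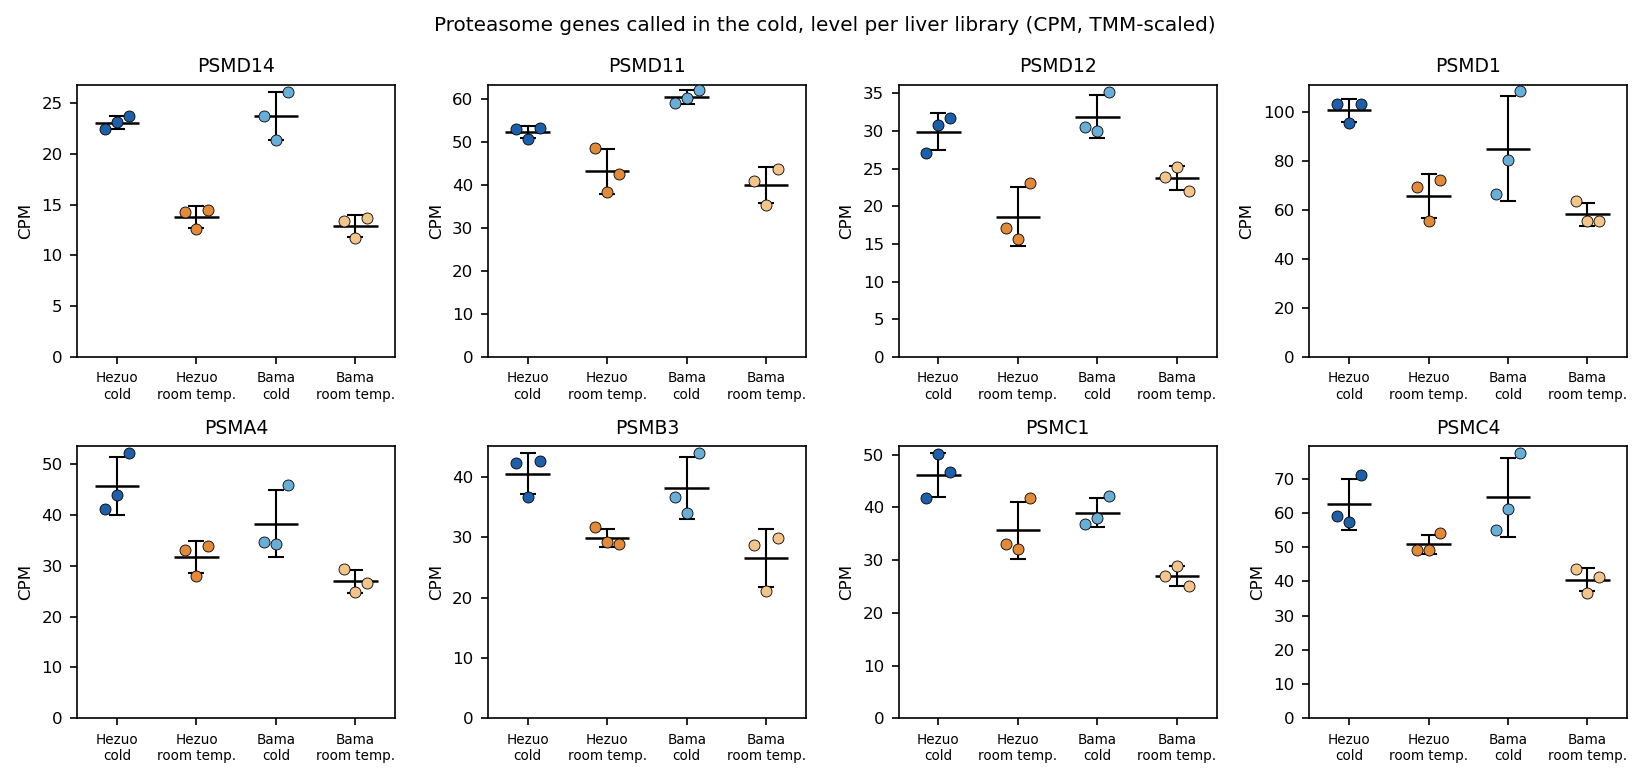
Level in CPM of 8 members called on the average of both breeds, 1 point per pig, with the group mean (line) and SD (bar, n = 3), in Hezuo cold, Hezuo room temperature, Bama cold and Bama room temperature. PSMD14 lies at 21.4 to 26.1 CPM in the cold and at 11.7 to 14.4 CPM at room temperature. Of the other genes, PSMD1 and PSMC1 overlap between the temperatures over both breeds, and PSMC1 also within Hezuo pigs. The rest separate cold from room temperature by less than PSMD14.

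Of the 6 ATPases, 2 were called on the average (PSMC1 and PSMC4), beside 1.95% of all genes called higher. At an unadjusted p below 0.05, 4 were higher, beside 11.7% of all genes, and the median log2 fold change was 0.38. Their summed level was 310, 333 and 376 CPM in Hezuo pigs in the cold, against 269, 254 and 308 CPM at room temperature. In Bama pigs it was 288, 302 and 348 CPM in the cold, against 264, 235 and 251 CPM at room temperature. The cold libraries lay above those at room temperature in both breeds, in Hezuo pigs by a narrow margin.

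PSMC4 had 59.1, 57.2 and 71.1 CPM in the cold, against 49.02, 49.2 and 54.1 CPM at room temperature, in Hezuo pigs. It had 55.02, 61.02 and 77.5 CPM in the cold, against 43.5, 36.7 and 41.2 CPM at room temperature, in Bama pigs. Cold and room temperature did not overlap over all 12 libraries, and the value was 0.67 ± 0.14 in Bama pigs (adjusted p = 0.054), 0.30 ± 0.14 in Hezuo pigs (adjusted p = 0.335) and 0.49 ± 0.10 averaged (adjusted p = 0.0289). PSMC1 had 41.7, 50.1 and 46.6 CPM in the cold, against 32.96, 32.2 and 41.9 CPM at room temperature, in Hezuo pigs. It had 36.9, 37.99 and 42.1 CPM in the cold, against 27.03, 28.8 and 25.02 CPM at room temperature, in Bama pigs. Here 1 cold Hezuo library fell just under the highest library at room temperature, and the average was 0.45 ± 0.09 (adjusted p = 0.026). PSMC2 (0.48 ± 0.13, adjusted p = 0.0602), PSMC6 (0.31 ± 0.09, adjusted p = 0.076), PSMC3 (0.11 ± 0.08, adjusted p = 0.453) and PSMC5 (0.00 ± 0.08, adjusted p = 0.987) did not pass. PSMC5, the ATPase with the highest FPKM, had 54.5, 53.1 and 55.6 CPM in the cold, against 54.9, 51.5 and 62.1 CPM at room temperature, in Hezuo pigs and 46.6, 45.7 and 55.6 CPM in the cold, against 46.8, 46.1 and 49.7 CPM at room temperature, in Bama pigs, with overlapping groups. The members of 1 ring of ATPases thus had averages from near 0 for PSMC5 to 0.49 for PSMC4, and differences between them were not tested.

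All 5 alpha subunits, which form the outer rings of the core, had a positive fold change in both breeds. On the average 2 were called (PSMA4 and PSMA3), beside 1.95% of all genes called higher. At an unadjusted p below 0.05, 5 were higher, beside 11.7% of all genes, and the median was 0.45. Their summed level was 247, 237 and 302 CPM in Hezuo pigs in the cold, against 216, 172 and 222 CPM at room temperature. In Bama pigs it was 245, 228 and 270.3 CPM in the cold, against 206, 157 and 197 CPM at room temperature. PSMA4 had 41.1, 43.9 and 52.1 CPM in the cold, against 33.05, 27.99 and 33.8 CPM at room temperature, in Hezuo pigs. It had 34.7, 34.2 and 45.8 CPM in the cold, against 29.3, 24.7 and 26.6 CPM at room temperature, in Bama pigs. All cold libraries were above all at room temperature, and the average was 0.52 ± 0.10 (adjusted p = 0.0248), from estimated counts that were fractional in every library.

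PSMA3 had 42.8, 42 and 56.8 CPM in the cold, against 34.3, 27.7 and 39.8 CPM at room temperature, in Hezuo pigs. It had 50.9, 49.1 and 55.1 CPM in the cold, against 39.01, 34.7 and 42.4 CPM at room temperature, in Bama pigs. It separated the temperatures within each breed but not across breeds, at 0.45 ± 0.11 (adjusted p = 0.0483). PSMA1 (0.49 ± 0.15, adjusted p = 0.0893), PSMA6 (0.36 ± 0.12, adjusted p = 0.11) and PSMA7 (0.24 ± 0.10, adjusted p = 0.159) did not pass. Beside the members, PSMA5 had 0.58 ± 0.20 (adjusted p = 0.123), with 52.2 CPM in Hezuo cold replicate 3 and 29.04 and 30.6 CPM in the other Hezuo cold libraries, and PSMA2 had 0.26 ± 0.13 (adjusted p = 0.274).

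Among the 4 structural beta subunits, PSMB3 and PSMB2 were called on the average, beside 1.95% of all genes called higher. All 4 had a positive fold change in both breeds and the median was 0.32. PSMB3 had 42.2, 36.6 and 42.7 CPM in the cold, against 31.6, 29.1 and 28.8 CPM at room temperature, in Hezuo pigs. It had 36.6, 34.1 and 43.95 CPM in the cold, against 28.7, 21.03 and 29.9 CPM at room temperature, in Bama pigs. PSMB2 had 52.5, 49.3 and 53.9 CPM in the cold, against 42.1, 34.6 and 45.5 CPM at room temperature, in Hezuo pigs and 50.2, 49.2 and 55.3 CPM in the cold, against 41.7, 33.2 and 40.1 CPM at room temperature, in Bama pigs. In both genes every cold library stood above every library at room temperature, with averages of 0.48 ± 0.11 (adjusted p = 0.0333) for PSMB3 and 0.39 ± 0.09 (adjusted p = 0.0405) for PSMB2. PSMB1, the member with the highest FPKM, had 79.7, 74.6 and 100.2 CPM in the cold, against 71.8, 57.9 and 75.8 CPM at room temperature, in Hezuo pigs. It had 68.4, 70.98 and 78.8 CPM in the cold, against 68.2, 58.4 and 64.9 CPM at room temperature, in Bama pigs. It reached 0.25 ± 0.10 (adjusted p = 0.17), and PSMB4 reached 0.22 ± 0.12 (adjusted p = 0.316), both without a call.

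Neither of the catalytic beta subunits among the members was called in the cold. PSMB6, the caspase-like subunit, had 46.7, 45.7 and 47.8 CPM in the cold, against 46.04, 43.8 and 48.5 CPM at room temperature, in Hezuo pigs. It had 39.02, 42.6 and 34.2 CPM in the cold, against 32.8, 31.9 and 33.5 CPM at room temperature, in Bama pigs. The temperatures overlapped in Hezuo pigs and not in Bama pigs, and the average was 0.13 ± 0.07 (adjusted p = 0.318). PSMB7, the trypsin-like subunit, had 38.1, 31.9 and 34.6 CPM in the cold, against 31.8, 32.2 and 29.9 CPM at room temperature, in Hezuo pigs. It had 29.5, 29.7 and 28.3 CPM in the cold, against 26.5, 22 and 24.9 CPM at room temperature, in Bama pigs, and its average was 0.20 ± 0.08 (adjusted p = 0.144). PSMB5, the chymotrypsin-like subunit, which is no member for want of a symbol, averaged 0.25 ± 0.12 (adjusted p = 0.22).

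PSMB10, the inducible subunit that takes the place of PSMB7, did not follow the temperatures. It had 19.1, 26.2 and 16.9 CPM in the cold, against 13.9, 18.1 and 15.5 CPM at room temperature, in Hezuo pigs. It had 33.3, 22.1 and 22.5 CPM in the cold, against 35.5, 16.3 and 33.7 CPM at room temperature, in Bama pigs, with Bama replicate 2 at room temperature far under the other 2 libraries of its group. The value was 0.39 ± 0.28 in Hezuo pigs (adjusted p = 0.533) and -0.14 ± 0.28 in Bama pigs (adjusted p = 0.854). PSMB8 and PSMB9, which the rule leaves out, had cold averages of -0.03 ± 0.27 (adjusted p = 0.956) and -0.08 ± 0.28 (adjusted p = 0.889).

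The share of the inducible subunit in each catalytic pair was taken from FPKM within a library, so it does not depend on the scaling between libraries. PSMB10 made up 30.3%, 41.4% and 27.7% of PSMB10 and PSMB7 in Hezuo pigs in the cold, against 26.7%, 30.9% and 30.9% at room temperature. In Bama pigs it made up 49%, 39.2% and 39.3% in the cold, against 52.9%, 37.9% and 53.3% at room temperature. The temperatures overlapped in both breeds. At room temperature the Hezuo libraries all lay under the Bama libraries. PSMB9 likewise made up 28.4% ± 2.94 of PSMB9 and PSMB6 in Hezuo pigs in the cold and 26.4% ± 1.02 at room temperature, and 46.5% ± 8.13 in Bama pigs in the cold and 53.9% ± 16.4 at room temperature (SD, n = 3). For PSMB8 with PSMB5 the shares were 30.3% ± 3.30, 33.2% ± 9.23, 49.7% ± 6.73 and 58.1% ± 12.3 in Hezuo cold, Hezuo room temperature, Bama cold and Bama room temperature. These shares were not tested.

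**Figure D4:**
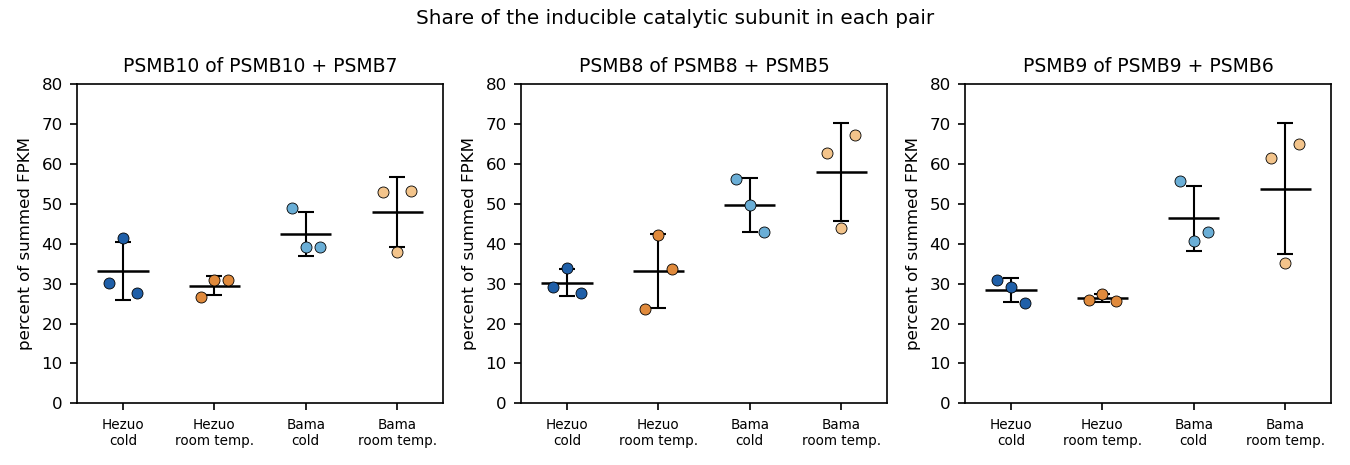
Share of the inducible catalytic subunit in each pair, in percent of the summed FPKM of the pair, 1 point per pig, with mean (line) and SD (bar, n = 3) of each group. The 3 panels show PSMB10 with PSMB7, PSMB8 with PSMB5 and PSMB9 with PSMB6. The 6 Hezuo libraries lie at 25.2% to 30.9% for PSMB9 and the 6 Bama libraries at 35.1% to 65.1%.

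The activators and the inhibitor had cold values of both signs. PSME4, the large single-chain activator, was called on the average (0.47 ± 0.11, adjusted p = 0.0456). It had 115, 104 and 120.2 CPM in the cold, against 97.1, 75.6 and 96.96 CPM at room temperature, in Hezuo pigs. It had 97.4, 108 and 148 CPM in the cold, against 74.8, 82.02 and 75.7 CPM at room temperature, in Bama pigs. Every cold library was above every library at room temperature, by a narrow margin between the lowest and the highest of them. PSME1, the interferon-induced activator that pairs with PSME2, had negative values in both breeds. It had 97.3, 74.98 and 88.3 CPM in the cold, against 94.6, 97.2 and 97.7 CPM at room temperature, in Hezuo pigs. It had 100.3, 83.5 and 72.4 CPM in the cold, against 123, 78.3 and 126 CPM at room temperature, in Bama pigs, so that the groups overlapped and the average, -0.25 ± 0.13, did not pass (adjusted p = 0.269). PSME2, its partner and no member, averaged 0.12 ± 0.15 (adjusted p = 0.661). PSMF1, which encodes an inhibitor of the core, had 59.6, 59.1 and 62.2 CPM in the cold, against 59.3, 78.2 and 60.9 CPM at room temperature, in Hezuo pigs. It had 57.1, 55.99 and 50.5 CPM in the cold, against 60.8, 59.3 and 56.8 CPM at room temperature, in Bama pigs. Its average was -0.12 ± 0.09 (adjusted p = 0.415).

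PSME3, the activator of the cell nucleus, separated by library and not by group. It had 45.5, 59.1 and 48.04 CPM in the cold, against 52.8, 43.8 and 55.3 CPM at room temperature, in Hezuo pigs. It had 55.7, 221 and 70.9 CPM in the cold, against 51.02, 213 and 43.2 CPM at room temperature, in Bama pigs. Both Bama libraries numbered 2 stood far above the other 10, and the lower of the pair lay 1.59 on the log2 scale above the highest of the others, the widest such gap among 13532 genes. The value in the cold was 0.09 ± 0.44 (adjusted p = 0.924), with a standard error far above that of PSME4.

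**Figure D5:**
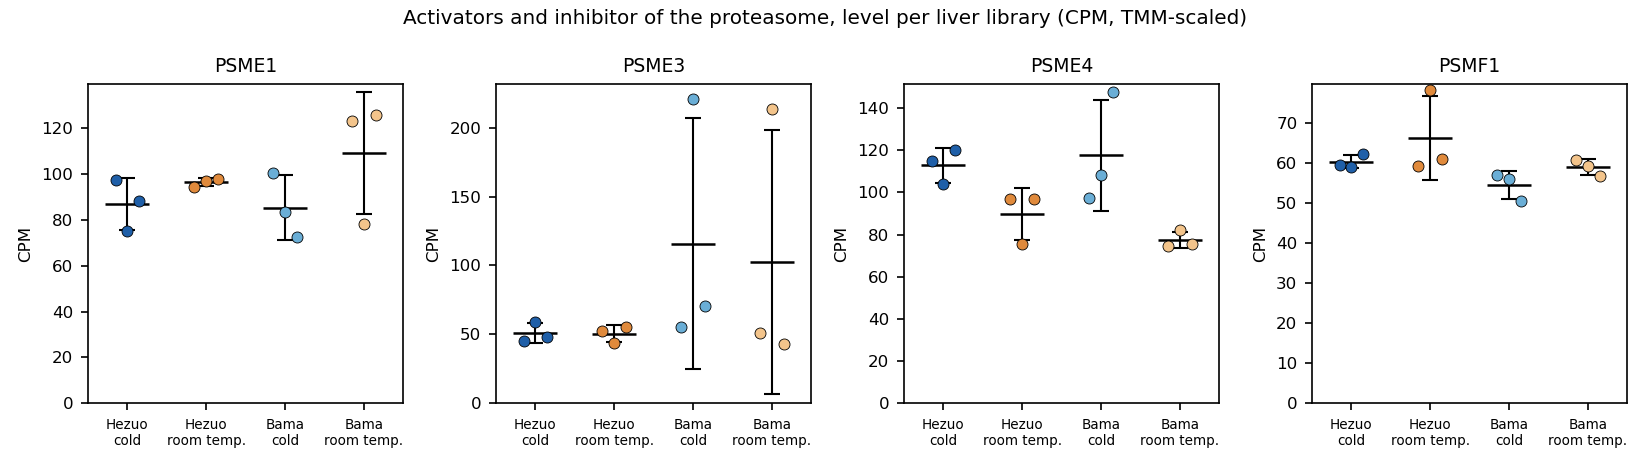
Level in CPM of the activators PSME1, PSME3 and PSME4 and of the inhibitor PSMF1, 1 point per pig, with mean (line) and SD (bar, n = 3) of each group. PSME3 lies at 221 CPM in Bama cold replicate 2 and at 213 CPM in Bama replicate 2 at room temperature, and at 43.2 to 70.9 CPM in the other 10 libraries. PSME4 lies at 97.4 to 147.5 CPM in the cold and at 74.8 to 97.1 CPM at room temperature.

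Of the 3 assembly chaperones, PSMD5, which helps to build the base of the cap, was called on the average at 0.58 ± 0.14 (adjusted p = 0.0405). It had 42.4, 43.9 and 49.02 CPM in the cold, against 35.1, 24.1 and 33.05 CPM at room temperature, in Hezuo pigs. It had 37.8, 36.2 and 57.2 CPM in the cold, against 30.6, 24.4 and 30.4 CPM at room temperature, in Bama pigs, and all cold libraries were above all at room temperature. PSMD10, a further chaperone of the base and an oncoprotein of liver cancer, had 4.61, 6.12 and 11.2 CPM in the cold, against 7.42, 5.04 and 4.54 CPM at room temperature, in Hezuo pigs. It had 10, 8.37 and 7.31 CPM in the cold, against 9.996, 6.97 and 8.36 CPM at room temperature, in Bama pigs. Its cold libraries in Hezuo pigs spread more widely than those of the other groups, and its average was 0.19 ± 0.22 (adjusted p = 0.629). PSMG3, a chaperone of the alpha ring, had 6.61, 4.7 and 6.98 CPM in the cold, against 7.42, 6.26 and 5.84 CPM at room temperature, in Hezuo pigs. It had 4.75, 4.78 and 5.805 CPM in the cold, against 7.17, 7.197 and 6.66 CPM at room temperature, in Bama pigs. All 3 cold Bama libraries were under those at room temperature, and the value there was -0.45 ± 0.18 (adjusted p = 0.261), while Hezuo pigs overlapped (-0.09 ± 0.19, adjusted p = 0.841). Beside the members, PSMG2, another chaperone of the alpha ring, averaged 0.44 ± 0.13 (adjusted p = 0.0695), PSMD9 0.20 ± 0.11 (adjusted p = 0.278) and PSMG4 -0.01 ± 0.12 (adjusted p = 0.963). PSMC3IP, the row that is no subunit, had 84 counts in all 12 libraries together and at most 0.817 CPM, and its values of 1.28 ± 0.98 in Hezuo pigs and -1.17 ± 0.78 in Bama pigs rest on those few reads.

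No proteasome gene responded differently to cold in the breeds by the test. The difference of the cold response, Hezuo minus Bama, was called for 0 of 35 members by edgeR and by DESeq2. Of all genes, edgeR called 0.00739% and DESeq2 1.03%. At an unadjusted p below 0.05 there were 0 members, beside 8.02% of all genes. The median was -0.02 (-0.10 to 0.03 when 1 library was left out). The 3 largest positive differences were 2.45 ± 1.25 for PSMC3IP, 0.52 ± 0.40 for PSMB10 and 0.36 ± 0.26 for PSMG3. The 3 largest negative ones were -0.37 ± 0.20 for PSMC4, -0.32 ± 0.17 for PSMD11 and -0.27 ± 0.23 for PSME4. For PSMD14 the difference was -0.13 ± 0.17 (adjusted p = 0.925). A p that misses the threshold does not show that the breeds responded alike.

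Between the breeds at room temperature, PSMB6 was the 1 called member of 35, beside 1.08% of all genes. It had 46.04, 43.8 and 48.5 CPM in Hezuo pigs against 32.8, 31.9 and 33.5 CPM in Bama pigs, and the groups did not overlap (0.50 ± 0.11, adjusted p = 0.0492). Of 12 fits that left out 1 library, 1 kept the call, that without Bama cold replicate 3, and over 20 alternatives its adjusted p ran from 0.000706 to 0.385. PSMB7 had 31.8, 32.2 and 29.9 CPM in Hezuo pigs against 26.5, 22 and 24.9 CPM in Bama pigs (0.36 ± 0.11, adjusted p = 0.115), and PSMA7 had 73.5, 58.9 and 66.4 CPM in Hezuo pigs against 54.7, 39.4 and 44.5 CPM in Bama pigs (0.52 ± 0.14, adjusted p = 0.0799). Both separated the breeds without passing over all genes, and PSMB5, beside the members, had 0.47 ± 0.17 (adjusted p = 0.152). The inducible subunits had values of the other sign: -0.85 ± 0.28 for PSMB10 (adjusted p = 0.136), -1.36 ± 0.40 for PSMB9 (adjusted p = 0.106) and -0.83 ± 0.38 for PSMB8 (adjusted p = 0.253), with Bama replicate 2 in the range of the Hezuo libraries. The 6 markers of T and NK cells, all detected, summed to 43.5 to 69.9 CPM in Hezuo pigs against 81.8 to 218 CPM in Bama pigs, and their part in these values was not tested.

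Over the members the median log2 fold change of Hezuo over Bama at room temperature was 0.11, 24 of 35 were positive, beside 49.6% of all genes. At an unadjusted p below 0.05, 6 were higher and 3 lower, beside 9.93% and 9.9% of all genes. DESeq2 called 3, beside 7.66%. The median rested on single libraries: it was 0.03 without Bama replicate 2, 0.06 without Hezuo replicate 1, 0.07 without Hezuo replicate 3 and 0.18 without Hezuo replicate 2, all at room temperature, and -0.004 with Y-linked RNA as a term. PSMC1 had 0.40 ± 0.13 (adjusted p = 0.125), PSME3 -1.02 ± 0.63 (adjusted p = 0.404) and PSMC3IP -2.34 ± 0.90 (adjusted p = 0.182). Since every Bama library at room temperature lacked Y-linked RNA and every Hezuo library had it, breed and Y-linked RNA cannot be told apart in this comparison. The size of the Y-linked term comes from Bama cold replicate 2 against Bama cold replicates 1 and 3, so the median with it cannot separate them.

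In the cold 0 of 35 members differed between the breeds by edgeR, beside 2.76% of all genes. Of the members, 4 were higher and 0 lower at an unadjusted p below 0.05, beside 11.2% and 9.92% of all genes. DESeq2 called 1, PSMD3, a scaffold subunit of the cap, beside 9.07% of all genes. PSMD3 had 112, 115 and 121 CPM in Hezuo pigs against 84.95, 89.9 and 90.95 CPM in Bama pigs, without overlap (0.39 ± 0.12, edgeR adjusted p = 0.0935, DESeq2 adjusted p = 0.0179). PSMD8, another cap subunit, had 0.38 ± 0.13 (adjusted p = 0.134), PSMA7 0.28 ± 0.14 (adjusted p = 0.257), PSMB6 0.27 ± 0.11 (adjusted p = 0.165) and PSMB7 0.26 ± 0.11 (adjusted p = 0.21). The lowest values were -1.19 ± 0.63 for PSME3, -0.33 ± 0.28 for PSMB10 and -0.22 ± 0.30 for PSMD10. The median over the members was 0.09. It was 0.006 without Hezuo cold replicate 3, 0.03 without Bama cold replicate 2, 0.14 without Bama cold replicate 3, 0.14 without Hezuo cold replicate 2 and 0.03 with Y-linked RNA as a term. Scaled by library size alone, the median of all genes shifted by -0.32 in this comparison and by -0.22 at room temperature, and the medians of the members turned to -0.22 and -0.11. Relative to all genes in that scaling they were 0.09 and 0.11.

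The partners of the proteasome were read from a list of 36 genes for ubiquitin, its activation, shuttles, ligases, chaperones and control of the proteasome genes, of which 33 were tested. Averaged over the breeds, 1 of 33 was called in the cold, beside 3.89% of all genes in both directions, with a median log2 fold change of 0.14. At an unadjusted p below 0.05, 11 were higher and 2 lower, beside 11.7% and 11.8% of all genes. The called gene was NPLOC4, a cofactor of the segregase VCP, which pulls tagged proteins out of complexes and hands them to the proteasome. It had 68.97, 65.8 and 68.2 CPM in the cold, against 53.9, 39.2 and 51.9 CPM at room temperature, in Hezuo pigs. It had 62.6, 58.6 and 78.8 CPM in the cold, against 43.6, 40.1 and 43.6 CPM at room temperature, in Bama pigs. Every cold library was above every library at room temperature (0.57 ± 0.10, adjusted p = 0.017), and the call held in 12 of 12 fits that left out 1 library but not with Y-linked RNA as a term (0.48, adjusted p = 0.186), where 6 genes of 13532 were called. That fit takes the cold value of Bama pigs from Bama cold replicate 2 alone. The log2 fold change was 0.48 to 0.66 over 19 alternatives.

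Averages were positive for 22 of the 33 tested partners and negative for 11, beside 48.7% of all genes with a positive value. The lowest was that of FBXO32, one of the ligases, at -0.51 ± 0.19 (adjusted p = 0.128). Other partners had positive averages without a call. UFD1, another cofactor of VCP, had 0.34 ± 0.09 (adjusted p = 0.0605), POMP, the maturation chaperone of the core, 0.49 ± 0.14 (adjusted p = 0.065) and VCP itself 0.35 ± 0.14 (adjusted p = 0.156). NFE2L1, the factor that drives the subunit genes, had 242, 210.4 and 168 CPM in the cold, against 185, 192 and 142 CPM at room temperature, in Hezuo pigs. It had 172, 175 and 200.3 CPM in the cold, against 176, 181 and 154 CPM at room temperature, in Bama pigs, with overlap in both, and its average was 0.18 ± 0.12 (adjusted p = 0.389). UBB, which encodes polyubiquitin, averaged 0.15 ± 0.13 (adjusted p = 0.543). The RNA of NFE2L1 does not measure the activity of its protein, which is set by cleavage and by its own breakdown. In the other 5 comparisons 0 of 33 partners were called by edgeR, beside 0.00739% to 2.76% of all genes. DESeq2 called 0 to 2, beside 1.03% to 9.07% of all genes. At an unadjusted p below 0.05 there were 7 of 33 for cold in Hezuo pigs, beside 15.6% of all genes, and 5 for cold in Bama pigs, beside 15.8%. Between the breeds there were 3 in the cold, beside 21.1%, and 5 at room temperature, beside 19.8%, and in the difference of the cold responses 0, beside 8.02%.

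The circRNA table gave another readout of the members, the counts of back-splice reads, which span the link between a downstream exon and one upstream of it in a closed RNA loop. Of 24177 circRNAs, 56 came from 14 members, with 1323 counts in all, 0.211% of back-splice counts. Of the tested members, 40% had a circRNA, beside 41.4% of all tested genes. PSME4 alone gave 21 circRNAs and 729 counts, 55.1% of those of the members, followed by PSMC6 with 7 circRNAs and 215 counts. PSMD14 gave 2 circRNAs and 40 counts. The circRNA of PSME4 with the most counts joined chr3:87251850-87262951 on the plus strand, as the deposited table gives it with no build named, over annotated exons of 453 spliced bases. It had 11, 18 and 7 counts in Hezuo pigs in the cold, against 17, 11 and 7 at room temperature. In Bama pigs it had 9, 13 and 33 counts in the cold, against 36, 30 and 14 at room temperature. The groups overlapped in both breeds.

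None of the 28 tested circRNAs of members was called by edgeR in any of the 6 comparisons, beside 0.0886% to 0.454% of the 9032 circRNAs tested. At an unadjusted p below 0.05 there was 1 of 28 for cold in Hezuo pigs, beside 5.79% of all circRNAs, 0 in Bama pigs, beside 6.53%, and 1 on the average, beside 7.86%. Between the breeds there were 2 in the cold, beside 8.49%, and 0 at room temperature, beside 7.94%, and in the difference of the cold responses 1, beside 5.67%. These counts were near the shares of all circRNAs. Back-splice reads of PSME4 per 1000 counts of the gene were 23.6, 23.7 and 18.3 in Hezuo pigs in the cold, against 28.4, 39.6 and 19.2 at room temperature. In Bama pigs they were 16.7, 15.6 and 19.4 in the cold, against 37.8, 32.6 and 23.8 at room temperature. The Bama groups did not overlap and the Hezuo groups did, and the ratio was not tested. At 39 to 90 back-splice reads of PSME4 in a library, counting error alone is wide, and the other members had fewer. What size of change could be found at these counts was not tested.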

How the data were processed

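Liver RNA of pigs was compared in 12 libraries, 4 groups of 3, each library labelled with a pig number from 1 to 3. Each number recurs at both temperatures of a breed, and the labels do not say whether it marks the same animal. Bama pigs 1 and 3 differ in Y-linked RNA between the temperatures. P-values measure the spread between these libraries. Per the labels' protocols, ribosomal RNA was removed from total RNA and a stranded library was made. The submitters' processing notes name fastp, which trims reads. The sources used here do not name the aligner, the counter, its use of strand or the genome build, so reads of overlapping genes may not be told apart. Estimated counts per gene and library, which the authors deposited without normalization, were rounded to whole numbers before testing (17.9% of the nonzero values of members were fractional). FPKM values, which the authors deposited for the same genes, were used for levels between genes and for shares within a library, and in no test. Back-splice counts per circRNA and RPM values are those that the authors deposited, and the RPM values were not used.

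Symbols were taken from the gene table. Genes with none were named through the identifiers in a table of Ensembl names or the RefSeq annotation of Sscrofa11.1. A row with the symbol BRWD1 that is described as proteasome assembly chaperone 1 was left out. No sequence of a gene is printed.

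Genes were tested with edgeR 4.0.16 in R 4.3.3, with TMM scaling (factors 0.874 to 1.20), filterByExpr (at its minimum count of 10 and total of 15) and a quasi-likelihood model, robust, of 4 groups over all 12 libraries with 8 residual degrees of freedom. Adjusted p-values are Benjamini-Hochberg values over all 13532 genes, called below 0.05, and the tests are two-sided. Each standard error was obtained from the log2 fold change and its F statistic. The 6 contrasts were cold against room temperature in each breed and averaged over both, Hezuo against Bama at each temperature, and the difference of the cold responses. Likewise tested were circRNAs with 2 or more counts in 3 or more libraries and 10 or more overall. The scripts were tested on simulated counts. Replicates of 1 group differed far beyond the sampling noise (chi-square per degree of freedom 74.2 to 196), and none were merged.

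The alternatives were DESeq2 1.42.0, RLE scaling, library size alone, no filter, the replicate number as a block, Y-linked RNA (DDX3Y above 1 CPM) as a term, leaving out each library in turn and fits of the compared groups alone. Within a group, presence of Y-linked RNA varied in Bama pigs in the cold alone, so its term is estimated from the libraries of that group. A fit without both Bama libraries numbered 2 was chosen after seeing the data. The members, the role and partner lists and the tests were chosen with earlier results of these data known. Values are given for members called in any contrast, for the catalytic subunits, for the highest and lowest mean FPKM of each role, and for the 3 largest positive and negative fold changes of each contrast. The genes of other roles named beside them were chosen after their values were seen. A gene of the partner list is not reported here.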

Additional observations from a re-analysis of the deposited data

How the results depend on the processing

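No single called gene changed its direction under any alternative, whereas the medians between the breeds turned negative with library size alone. Of the counts of calls, those of circRNAs included, and of the medians, 265 values under an alternative stayed near the reported one. Below it fell 51, above it rose 7, and 3 medians moved. Counts near the reported one need not be equal to it, and a median was near within 0.128 on the log2 scale. That width is the SD of the members' median between replicates. The medians between the breeds, 0.11 at room temperature and 0.09 in the cold, are smaller, so their falls to about 0 were also taken as near. The 265 include every count that was 0 in both fits, as for all circRNA comparisons that stayed without a call. They thus do not show that counts of calls above 0 were stable. Of the results on single called genes, 213 of the values under an alternative kept their side of the threshold and 152 lost the call. The share of all genes called in the same fit stands in parentheses for most fits. For cold against room temperature in Hezuo pigs, 1 member was called (0.281%), against 5 with DESeq2 (3.99%). The number was 0 with Y-linked RNA as a term (0.0222%), with the compared groups alone (0.463%) and without both Bama libraries numbered 2 (0.0367%). It was 0 to 1 when 1 library was left out (0% to 0.485%). In Bama pigs 2 were called (0.924%), against 7 with DESeq2 (5.06%) and 6 with library size alone (2.12%). With library size alone the median was 0.46, beside 0.14 over all genes. The number was 0 with Y-linked RNA as a term (0.00739%) and 0 with the compared groups alone (0.0902%). It was 1 without both Bama libraries numbered 2 (1.13%), and 1 to 2 when 1 library was left out (0.132% to 0.97%). On the average of both breeds 12 were called (3.89%), against 18 with DESeq2 (11%) and 19 with library size alone (8.25%, with a median of 0.09 over all genes). The number was 1 with Y-linked RNA as a term (0.0443%) and 6 without both Bama libraries numbered 2 (3.78%). It was 2 to 12 when 1 library was left out (0.955% to 4.42%). For Hezuo against Bama at room temperature 1 was called (1.08%), against 3 with DESeq2 (7.66%). The number was 0 with RLE, no filter, Y-linked RNA as a term or the compared groups alone, each with fewer of all genes called. With library size alone it was also 0, although more of all genes were called. It was 0 to 1 when 1 library was left out, with shares of all genes on either side of 1.08%. Such changes do not show that the members were less stable than all genes. The median there was -0.11 with library size alone. For Hezuo against Bama in the cold 0 were called (2.76%), against 1 with DESeq2, higher (9.07%). With library size alone 1 was called, lower, at a median of -0.22 (16.1%). In the fits with Y-linked RNA as a term, the cold side of Bama pigs rests on Bama cold replicate 2 for the comparisons of temperature. Some of these fits also held fewer libraries, and the causes of the changes were not tested.

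The replicate numbers were not taken to pair the libraries. Deviations of same-numbered libraries correlated at -0.198 to 0.148 over 18 pairs, 3 of them above 0.1, but most of these pairs join different breeds. Within Bama pigs the values for numbers 1 to 3 were 0.138, 0.148 and 0.0223, against -0.155 to 0.00822 for unlike numbers. Within Hezuo pigs they were -0.0831, 0.0787 and -0.0142, against -0.0892 to 0.111. What Bama libraries of the same number share was not tested. With the replicate block 0 members were called in Hezuo pigs, 1 in Bama pigs, 14 on the average and 0 between the breeds at either temperature, beside 0%, 0.495%, 2.67%, and 0.259% at room temperature and 1.93% in the cold of all genes, and the block called 0 circRNAs. The medians within the breeds lay between 0.23 and 0.40 in Hezuo pigs and between 0.28 and 0.43 in Bama pigs when 1 library was left out. With 3 pigs a group, a difference of the size of the members' median was mostly not called within a breed.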

Other observations

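Values of proteasome genes that belong to no comparison are few. PSME3 was 1 of 273 genes whose Bama libraries numbered 2 both lay above the other 10 libraries, at 221 CPM in the cold and 213 CPM at room temperature, and its gap of 1.59 on the log2 scale ranked 1 among 13532 genes. The gene next in that order with a symbol, SLC43A1, a transporter of large neutral amino acids, had a gap of 0.89. Of these 2 libraries, neither held Y-linked RNA, and the labels do not say that they come from related animals.

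Among partners outside the rule for named genes, ZFAND5, which binds the proteasome and raises its activity in mice, had 196 CPM in Hezuo cold replicate 3, against 67.1 to 105 CPM in the other 11 libraries. PSMA5 and UBB were highest in that same library, with 52.2 CPM and 719 CPM. The row of SEM1, which encodes the smallest subunit of the cap, was listed at 0 in all 12 libraries, as was DDI1.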
